A study of Saccharomyces cerevisiae with 11 samples.

Results

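The experiment described here set arsenate-exposed yeast against its control after 4 h in medium rich in phosphate. It comprised 2 of the 11 arrays of the series, chosen by their titles. Cultures of Saccharomyces cerevisiae strain S288C, a laboratory strain grown here in synthetic medium with sucrose, held 1 mM phosphate and received 2 µM sodium arsenate. The control cultures held the same phosphate and received sodium chloride in place of arsenate. Each array carried both cultures, with the arsenate RNA in Cy5 and the control RNA in Cy3. The other arrays used here were 2 at 8 h and 1 at 10 h in the same medium, and 2 at 4 h in 100 µM phosphate (low phosphate) with 2 µM arsenate and a control culture. Fits on all 11 arrays also included the low phosphate arrays of 8 and 10 h, 2 at each time. Values are log2 ratios of arsenate over control, centred so that the median gene of an array stands at 0, and a value of 1 is a doubling. The labels do not say whether the 2 arrays came from separate cultures, so p-values here cover only how far these arrays differ, which may be technical. Dyes were not swapped, and any bias of a gene toward Cy5 or Cy3 enters each ratio. The ratios describe shares of an RNA pool, in which fewer cells with a transcript and less of it per cell cannot be told apart.

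Arsenate resembles phosphate and enters yeast through the phosphate carriers, so phosphate in the medium competes with it. Inside the cell the reductase Arr2 turns it into arsenite, the plasma membrane carrier Arr3 exports arsenite, and the vacuolar transporter Ycf1 stores its glutathione conjugates. Arr1 is the transcription factor that activates ARR2 and ARR3, and arsenite is also known to induce genes of sulfur assimilation, which feed glutathione synthesis.

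The arrays held values for 8506 and 8134 spots and for 5163 and 4984 genes. Where a gene had several measured spots on an array, it was used only if they lay within 0.5 of each other, which 87.4% and 88.8% of such genes did. Of 5636 genes named on the design, 4249 had a usable value on both arrays, 941 on 1 array only and 446 on neither, and the spots disagreed on at least 1 array for 639. Of the 4249 genes, 2300 had several measured spots on both arrays and 1949 had 1 spot on at least 1 array, and 34 had no spot that was measured on both arrays.

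Among genes that met the rule on spots, the arsenate reductase gene ARR2 stood furthest above control. It gave 3.50 and 3.44 on the 2 arrays from its single spot, a mean 11.1-fold higher in arsenate than in control (SE 0.07 on the log2 scale). Both values lay above those of the other genes tested. The limma test on the 5 high phosphate arrays gave an adjusted p of 0.121 for ARR2, so it did not pass the threshold of 0.05. That was the lowest adjusted p of all genes, and OLI1 shared it. With the 2 arrays of 4 h fitted alone, ARR2 passed at an adjusted p of 0.00636 and was the 1 gene that did, out of 4249 (0.0235%). It also passed without either 8 h array. Its level stayed at that height later, with 3.48 on the 8 h array that measured it and 3.58 at 10 h.

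The neighbour of ARR2, the arsenite exporter gene ARR3, did not meet the rule on spots and is given spot by spot without a test. Its first spot read 2.98 and 2.72 on the 2 arrays and its second spot 3.84 and -1.63. Thus 3 of its 4 readings lay near those of ARR2 and 1 lay below 0. The same spots read between 2.67 and 4.43 at 8 and 10 h. FRM2, a nitroreductase-like protein, was likewise outside the rule, with 3.15 and 4.62 from its first spot and 3.79 and 3.59 from its second. All 4 readings of FRM2 were high, and the disagreement between spots concerned only how high. HBN1, its paralogue, had 1 reading at 4 h, -1.42 on the first array, and read 0.39 and -0.25 at 8 h and 0.43 at 10 h.

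**Figure D1:**
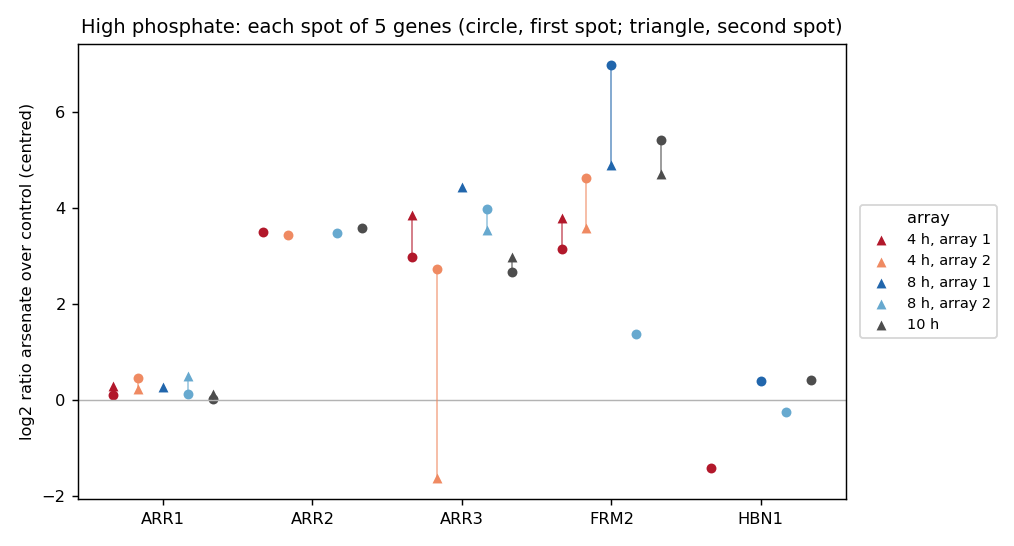
Log2 ratio of arsenate over control (vertical axis, centred) for each spot of ARR1, ARR2, ARR3, FRM2 and HBN1 on the 5 high phosphate arrays, ordered 4, 8 and 10 h within each gene. Circles are first spots, triangles second spots, and lines join the spots of 1 array. ARR2 has no value on the first 8 h array and sits between 3.44 and 3.58 on the others. The second spot of ARR3 reads -1.63 on the second 4 h array.

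The other arsenic genes lay much closer to control. ARR1, the activator, read 0.19 and 0.35. YCF1, the vacuolar conjugate transporter, read 0.47 and 0.31, and BPT1, a related vacuolar transporter, 0.29 and 0.33. FPS1, the glycerol channel through which arsenite passes, read 0.01 and 0.19. YCF1, BPT1 and ARR1 were above 0 on both arrays by less than 0.5, and none of the 4 passed the test (adjusted p from 0.144 to 0.537). Of 9 genes listed for arsenic resistance, 8 were tested. Of these, 7 lay above 0 on both arrays, against 1761 of all 4249 genes, and 3 above 0.25 on both, against 9.11% of all genes. The median of the 8 genes was 0.28, against 0.01 over all genes tested.

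Across the genome the ratios were small. The lower and upper quartiles of the mean of the 2 arrays were -0.18 and 0.16. The arrays gave the same sign for 3254 genes (76.6%), of which 1761 were above 0 and 1493 below. Across genes, which are not independent replicates and share the dyes and the design, the arrays correlated at 0.546 (Pearson) and 0.694 (Spearman), against 0.260 and 0.472 for the arrays of 8 h. In the limma test on the 5 high phosphate arrays, 0 genes were higher and 0 lower of 4249 (0.0% in each direction), while 1058 genes (24.9%) had an unadjusted p under 0.05, 626 higher and 432 lower. Both arrays were past 0.5 for 33 genes above 0 (0.777%) and 122 below (2.87%), and past 1 for 3 genes above (0.0706%) and 13 below (0.306%).

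The test outcome depended on which genes and arrays were fitted. Restricted to the 2300 genes with at least 2 agreeing spots, the same test called 217 genes higher (9.43%) and 162 lower (7.04%). Fitted with all 11 arrays, on 4228 genes named in both array designs, it called 415 higher (9.82%) and 313 lower (7.40%). Adjusted p-values of those fits are given below for some genes only, and the fit on the 5 high phosphate arrays called none of the genes concerned. Of the arsenic genes above, YCF1 (0.0350 and 0.0207) and BPT1 (0.0359 and 0.0174) passed in both of those fits. ARR1 passed only with all 11 arrays (0.0356), and FPS1 passed in neither. HSP26, CUR1, FAS1, FAS2 and PDR5, described below, also passed in both.

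**Figure D2:**
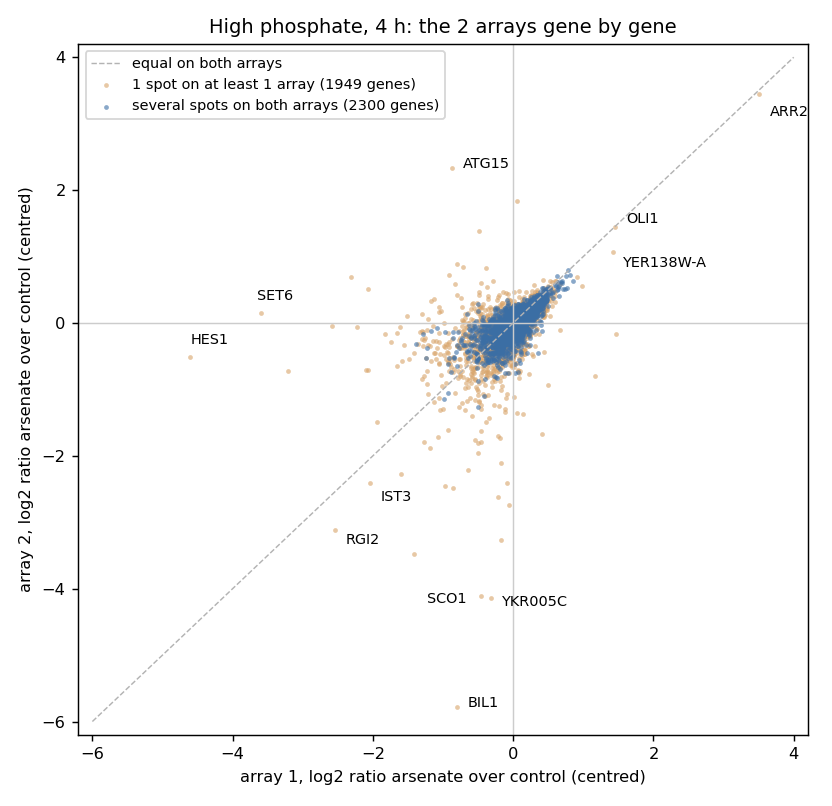
Each point is a gene, with its log2 ratio of arsenate over control on the first 4 h array (horizontal) and the second (vertical). Orange points had 1 spot on at least 1 array and blue points several on both. ARR2 stands alone at the upper right at 3.50 and 3.44, and of 80 genes that differ by more than 1 between the arrays, such as BIL1 and HES1, 76 are orange.

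After ARR2, the gene furthest above 0 on both arrays was encoded in mitochondria. OLI1, the mitochondrially encoded subunit of the ATP synthase ring, read 1.46 and 1.44 from 1 spot, and YER138W-A read 1.42 and 1.06 from 1 spot. These were the other genes past 1 on both arrays. TEF1 and TEF2, near-identical genes for elongation factor eEF1A whose spots may not tell them apart, read 0.78 and 0.80, and 0.92 and 0.70. PDC1, the main pyruvate decarboxylase, read 0.81 and 0.71. HXT3, a glucose transporter, read 0.69 and 0.63. VMA1, the catalytic subunit of the vacuolar proton pump, read 0.68 and 0.61, and ACC1, the first enzyme of fatty acid synthesis, 0.61 and 0.63. For these genes the arrays lay within 0.4 of each other, and each fell short of the threshold in the limma test (adjusted p from 0.121 to 0.144).

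The methionine permease MUP1 and the sulfate permease SUL1 were among the same 12 genes. MUP1 read 0.76 and 0.70, and its 2 spots lay between 0.65 and 0.80. SUL1 read 0.63 and 0.71, and MET6, the methionine synthase, 0.86 and 0.64. All 3 were above 0.6 on both arrays and rested on 2 agreeing spots. Adjusted p was 0.144 for each, 0.0179 for MUP1 and 0.0199 for SUL1 and MET6 among genes with 2 agreeing spots. MUP1 read 0.37 and 0.37 at 8 h and 0.00 at 10 h. SUL1 read 0.60 and 0.50 at 8 h and 0.26 at 10 h, so the 10 h array held the lowest value of both permeases.

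**Figure D3:**
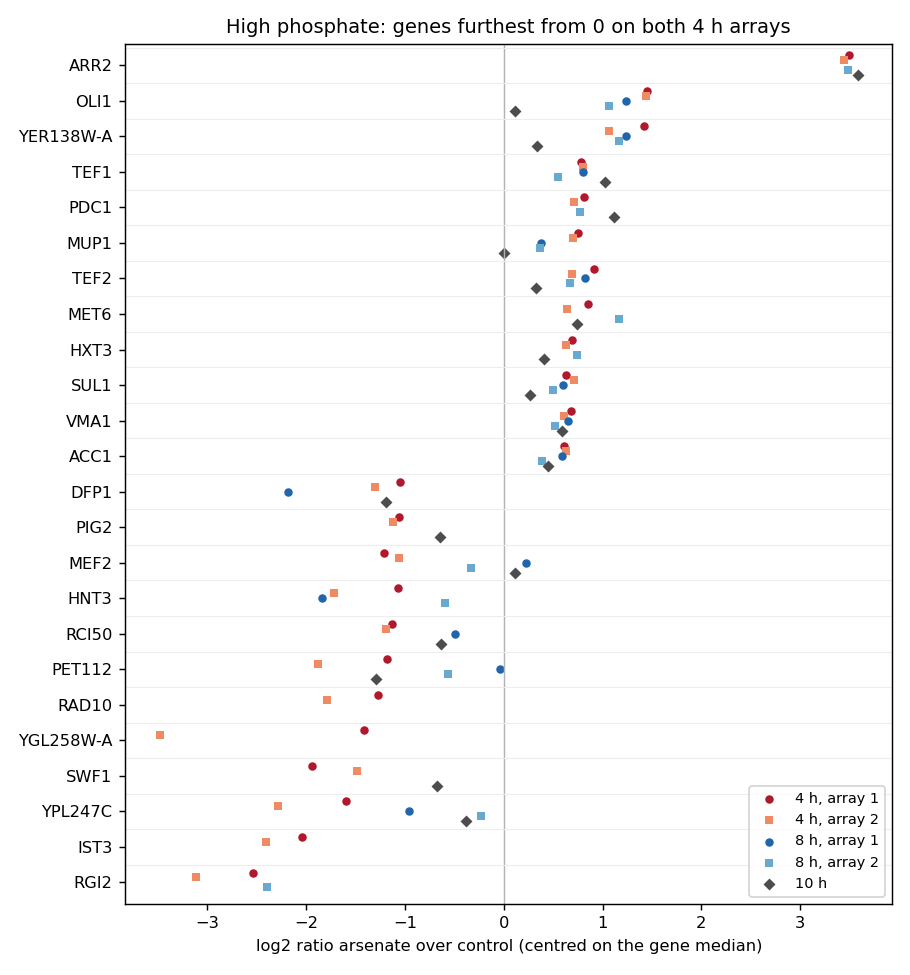
The 12 genes furthest above 0 and the 12 furthest below 0 on both 4 h arrays (rows), by the smaller of their 2 values, with their log2 ratios of arsenate over control on the 5 high phosphate arrays. Red and orange are 4 h, blues 8 h and grey 10 h, and missing points are unusable values. ARR2, TEF1 and PDC1 stay high on the single 10 h array, while TEF2 stands at 0.33, OLI1 at 0.11 and MUP1 at 0.00 there.

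The wider sulfur pathway ran from uptake to glutathione. MET3 and MET14, which activate sulfate, read 0.30 and 0.43, and 0.36 and 0.25. MET10, a subunit of sulfite reductase, read 0.65 and 0.40, and CYS4, which makes cystathionine, 0.52 and 0.50. SUL2, the second sulfate permease, read 0.30 and 0.25, and CYS3, the next enzyme after CYS4, 0.28 and 0.18. The genes named so far were all above 0 on both arrays. MET16, the reductase between MET14 and MET10, read -0.30 and 0.06, so its arrays disagreed in sign. Of 38 genes listed for sulfur assimilation, 28 were tested. On both arrays 19 lay above 0 and 4 (STR2, STR3, MET30 and MET32) below 0, against 1761 and 1493 of all 4249 genes. Of the 28, 13 lay above 0.25 on both arrays and 0 below -0.25, against 9.11% and 10.1% of all genes. The list's median was 0.23. In the fit on all 11 arrays, 12 of the 28 were higher and 0 lower, against 9.82% and 7.40% of all genes in that fit. GSH1, the first enzyme of glutathione synthesis, read 0.40 and 0.39 (adjusted p = 0.144 and, among genes with 2 agreeing spots, 0.0328). The 15 tested genes of glutathione metabolism, GSH1 included, had a median of 0.02, and GSH1 was the 1 gene of them past 0.25 on both arrays.

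Glycolysis and the translation machinery lay above the median gene on both arrays. Of 25 genes for glycolysis and fermentation, 22 were tested, with a median of 0.42. On both arrays 16 of the 22 lay above 0, against 1761 of all 4249 genes. Past the limit of 0.25 on both arrays, 15 lay above 0.25 and 1 below -0.25, against 9.11% and 10.1% of all genes. ENO1 and TDH2, near that median, read 0.38 and 0.43, and 0.48 and 0.39. CDC19, the pyruvate kinase, read 0.98 and 0.56, TDH3, the main glyceraldehyde-3-phosphate dehydrogenase, 0.71 and 0.51, and ADH1, the fermentative alcohol dehydrogenase, 0.67 and 0.59. These 3 genes were among the highest of the list and of the genome. In the fit on all 11 arrays 15 of the 22 were higher and 1 lower, against 9.82% and 7.40% of all genes there. Paralogous genes of this pathway share sequence, and how far their spots tell them apart was not tested.

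Cytosolic ribosomal protein genes lay above the median gene by a smaller amount. All 132 tested genes of the 135 cytosolic ribosomal protein genes lay above 0 on both arrays, against 1761 of all 4249 genes. Means ran from 0.04 to 0.64 over these 132 genes, with a median of 0.32. Of these, 93 were above 0.25 on both arrays and 0 below -0.25, against 9.11% and 10.1% of all genes. In the fit on all 11 arrays 97 of 132 were higher and 0 lower, against 9.82% and 7.40% of all genes. Among the 77 with 2 agreeing spots, 57 were higher and 0 lower in the test on such genes, against 9.43% and 7.04%. RPS11B and RPL21A, at the median, read 0.36 and 0.29, and 0.36 and 0.28. RPL41A and RPL41B, near-identical copies whose spots may not tell them apart, read 0.69 and 0.59, and 0.63 and 0.61. Values were even across the list, with 115 of 132 members within 0.15 of its median. Over the members usable on each array, medians were 0.32 and 0.34 at 8 h and 0.32 at 10 h. On the low phosphate 4 h arrays they were 0.25 and 0.22. Between phosphate levels, 14 of 129 members were higher at high phosphate and 1 lower, against 8.07% and 6.58% of all genes. The offset was thus not confined to 4 h or to high phosphate. What part the unswapped dyes had in it was not tested. Elongation factors, a list made after their values were seen, had a median of 0.39 over 10 genes. YEF3, elongation factor 3, read 0.77 and 0.53, and TEF4 read 0.40 and 0.34. Ribosome biogenesis genes, which build the same particle, had a median of 0.12 over 98 genes. On both arrays 14 of the 98 lay above 0.25 and 0 below -0.25, against 9.11% and 10.1% of all genes.

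Genes of fatty acid synthesis, also listed after their values were seen, had a median of 0.25 over 11 genes. All 11 lay above 0 on both arrays, against 1761 of all 4249 genes. FAS1 and FAS2, the subunits of the synthase, read 0.64 and 0.54, and 0.74 and 0.51. At 8 h FAS1 read 0.60 and 0.44, whereas FAS2 read 0.12 and 0.12. Cell wall genes had a median of 0.28 over 35 tested, with 17 above 0.25 on both arrays and 0 below -0.25, against 9.11% and 10.1% of all genes. PDR5, the main drug efflux pump, read 0.61 and 0.55. The hexose transporters HXT2 and HXT1 read 0.59 and 0.64, and 0.49 and 0.33. None of these genes passed in the limma test on the 5 high phosphate arrays (adjusted p = 0.144 for each gene named).

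Transcripts of the mitochondrial genome differed among themselves. That list, made after its values were seen, had 13 tested genes, with a median of 0.35. On both arrays 10 of the 13 lay above 0 and 3 below 0, against 1761 and 1493 of all 4249 genes. Beside OLI1, the intron reading frame AI1 read 0.52 and 0.52 and the cytochrome b gene COB 0.42 and 0.53. COX3, a subunit of cytochrome oxidase, read -0.26 and -0.30. At 8 h AI1 read 0.40 and 0.31 and COB 0.24 and 0.05. At 10 h AI1 stood at -0.44, COB at -0.39 and OLI1 at 0.11. Over all list members usable on each array, which need not be the 13 tested at 4 h, the median was 0.12 and 0.05 at 8 h. On the single 10 h array it was -0.16. The gene sets differ, so these medians are not read as a change from 4 h. Nuclear genes for mitochondrial ribosomal proteins had a median of -0.14 over 52 tested genes. On both arrays 3 of the 52 lay above 0 and 31 below 0, against 1761 and 1493 of all 4249 genes. Of the 52, 6 were below -0.25 on both, a share near the 10.1% of all genes. MRPL1 and MRPL15, at that median, read -0.05 and -0.22, and -0.05 and -0.24.

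Genes that respond to phosphate starvation stood near control. Of 23 genes in the PHO regulon 18 were tested, with a median of 0.06. In either direction 0 of them were past 0.25 on both arrays, against 9.11% of all genes above and 10.1% below. PHO84, the high-affinity phosphate carrier that also takes up arsenate, read -0.09 and -0.07. PHO89, the sodium-coupled carrier, read 0.12 and 0.06. PHO5, the secreted acid phosphatase, read -0.42 and -0.24, and PHO11, another acid phosphatase nearly identical to PHO12, -0.08 and -0.12. PHO8 and GPP2, at the list's median, read 0.04 and 0.04, and 0.06 and 0.09. PHO5 lay below 0 on both arrays (adjusted p = 0.148, and 0.0449 among genes with 2 agreeing spots). SPL2, an inhibitor of low-affinity phosphate uptake, read -1.13 and 0.36 from 1 spot, so its arrays disagreed in sign. PHO81, the kinase inhibitor of the pathway, was usable on the first array alone, at 0.07. The sign of values this close to 0 depends on the centring: the deposited gene medians were -0.12 and -0.10, and without centring the median of the PHO regulon was -0.06 and PHO89 averaged -0.02.

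**Figure D4:**
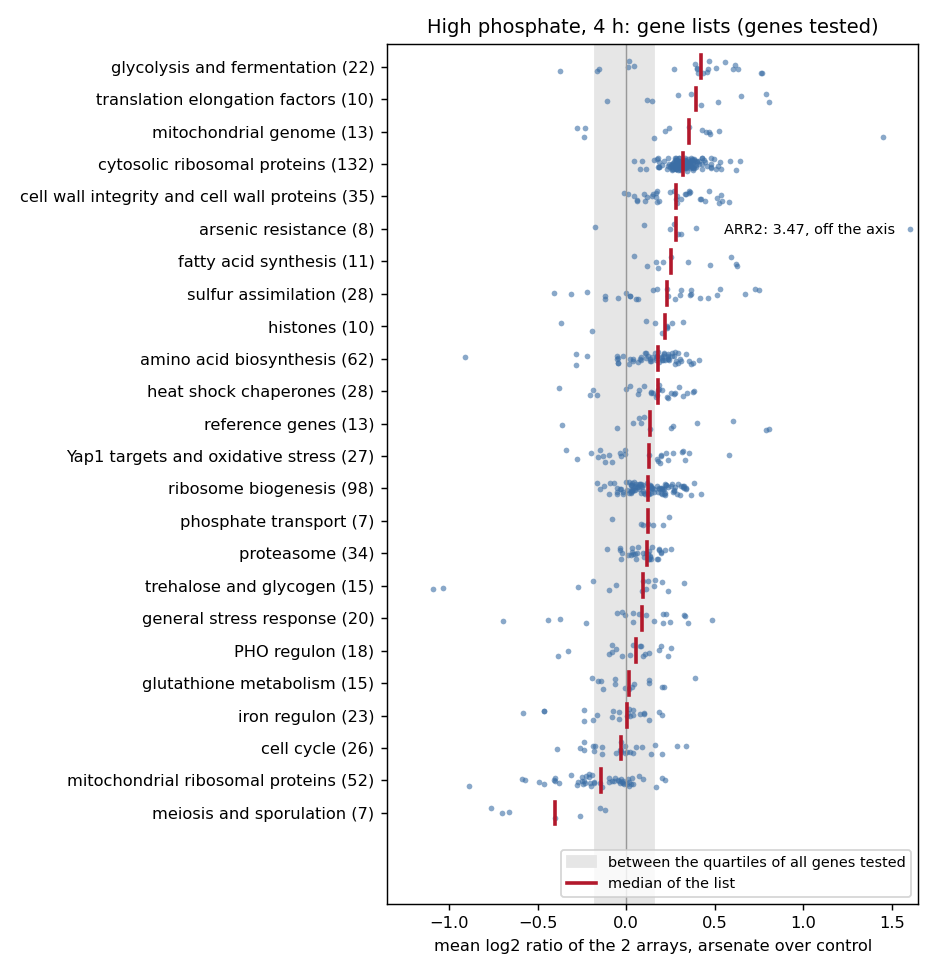
Mean log2 ratio of arsenate over control of the 2 arrays (horizontal) for the tested genes of 24 lists (rows, with the number tested), each point a gene and each red bar the list's median. The grey band runs between the quartiles of all genes tested, from -0.18 to 0.16. Glycolysis, elongation factors, the mitochondrial genome and cytosolic ribosomal proteins lie highest, and meiosis genes lowest.

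Most chaperone and stress genes named here lay close to control. Of 29 heat shock chaperone genes 28 were tested, with a median of 0.18, above the upper quartile of 0.16 over all genes. On both arrays 5 of them lay above 0.25 and 1 below -0.25, against 9.11% and 10.1% of all genes. The small chaperone HSP26 read 0.34 and 0.42, and the Hsp70 gene SSA4 -0.17 and -0.16. HSP104, the disaggregase, read 0.22 and 0.26, HSP42 0.19 and 0.09, HSP78 of mitochondria 0.10 and 0.18, and BTN2, a protein-sorting factor, 0.07 and 0.06. CUR1, its paralogue, read -0.47 and -0.29 and was the 1 gene of the list below -0.25 on both arrays. HSP10 and HSP82, near the list's median, read 0.22 and 0.13, and 0.17 and 0.19. All of these genes lay within 0.5 of control on both arrays.

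The general stress response, with targets of Msn2 and Msn4, had a median of 0.09 over 20 tested genes. On both arrays 3 of the 20 lay above 0.25 and 2 below -0.25, against 9.11% and 10.1% of all genes. HSP12, a membrane-protecting protein, read 0.19 and 0.13, the catalase CTT1 0.01 and -0.02, and HOR7 0.51 and 0.47. CTT1 was at the level of the median gene. Genes for trehalose and glycogen had a median of 0.10 over 15 tested, and GPH1, glycogen phosphorylase, read -0.22 and 0.02. GAC1 and PIG2, regulatory subunits tied to glycogen metabolism, were the 2 of these 15 past -0.5 on both arrays (2.87% of all genes), GAC1 at -1.27 and -0.79 and PIG2 at -1.06 and -1.12. YAP1, the oxidative stress regulator, read 0.25 and 0.14, and its target GRE2 -0.14 and -0.16. RPN4, the activator of proteasome genes, read 0.10 and 0.16. In either direction 0 of 34 proteasome genes were past 0.25 on both arrays, against 9.11% of all genes above and 10.1% below. Without centring the medians of the general stress and the trehalose and glycogen lists were both -0.02. ACT1, often used as a reference, read 0.32 and 0.21, and 13 reference genes had a median of 0.14.

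The genes furthest below 0 mostly had 1 spot on at least 1 array, as did 102 of the 122 genes past -0.5 on both arrays and 14 of the 33 past 0.5. RGI2, a gene of respiratory growth, read -2.54 and -3.11. IST3, a splicing factor, read -2.05 and -2.40, and YPL247C -1.59 and -2.28. SWF1, a protein palmitoyltransferase, read -1.95 and -1.49. The 4 genes agreed in sign but differed by 0.36 to 0.69 between arrays. RAD10, a nuclease of excision repair, read -1.27 and -1.79. PET112 and MEF2, which serve mitochondrial translation, read -1.18 and -1.88, and -1.21 and -1.07. PIG2, a putative targeting subunit for glycogen metabolism, read -1.06 and -1.12. The remaining genes of the 12 were YGL258W-A at -1.42 and -3.48, RCI50 at -1.13 and -1.19, HNT3, a DNA end-processing hydrolase, at -1.07 and -1.72, and DFP1 at -1.05 and -1.31. The values of HNT3 came from different spots on the 2 arrays. YPL247C and PIG2 had 2 spots on the first array and 1 on the second. All 12 had 1 spot on at least 1 array, and adjusted p ran from 0.144 to 0.170.

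Among genes with 2 agreeing spots, the kinetochore gene NNF1 read -0.98 and -1.15 and YPR127W, a pyridoxal reductase, -0.93 and -1.06. These were lower in the test on such genes (adjusted p = 0.0179 for each) and in the fit on all 11 arrays (0.00408 and 0.00346). In the fit on the 5 high phosphate arrays adjusted p was 0.144 for both. At 8 h NNF1 read -0.06 and YPR127W -0.61 on the 1 array that measured them. Meiosis and sporulation genes, largely silent in growing cells, had usable values for 7 of 30, with a median of -0.40. Of these 7, 4 lay below -0.25 on both arrays, against 10.1% of all genes, and all 7 had 1 spot on at least 1 array.

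The arrays differed by a median of 0.12 per gene and by more than 1 for 80 genes, of which 76 had 1 spot on at least 1 array. The 6 largest differences were those of BIL1 (-0.80 and -5.78), HES1 (-4.60 and -0.51), YKR005C (-0.32 and -4.15), SET6 (-3.60 and 0.15), SCO1 (-0.46 and -4.11) and ATG15 (-0.87 and 2.33). In each of these pairs 1 array lay within 1 of control and the other far from it. SCO1, a copper chaperone of cytochrome oxidase, had values on the other high phosphate arrays, which read -0.42 and -0.59 at 8 h and -0.58 at 10 h. For HES1 the 2 values came from different spots.

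Set against 8 h in the same medium, where a constant dye preference cancels, 0 genes were higher and 0 lower at 4 h of 4046 tested (0.0% in each direction, lowest adjusted p = 0.518, and 377 genes with an unadjusted p under 0.05). Without the first 8 h array 167 genes were higher and 44 lower at 4 h of 3342 tested, and without the second 72 and 3 of 3478. These fits leave 1 array at 8 h, which is assumed to vary like the other groups in the fit, so the counts depended on which 8 h arrays were used. PHO84 read -0.09 and -0.07 at 4 h, then 0.52 and 0.58 at 8 h, and 0.69 on the 10 h array. Its difference of 4 h minus 8 h was -0.63 (limma adjusted p = 0.518). GRE2 read -0.14 and -0.16 at 4 h, then 0.28 and 0.39 at 8 h, and 0.79 on the 10 h array. RPN4 read 0.10 and 0.16 at 4 h, then 0.46 and 0.41 at 8 h, and 0.47 on the 10 h array. PHO5 read -0.42 and -0.24 at 4 h, then 0.03 and 0.06 at 8 h, and 0.64 on the 10 h array. All 4 genes had their lowest values at 4 h, and adjusted p for 4 h minus 8 h was 0.529 for GRE2, RPN4 and PHO5. They were picked by name, and other named genes ran the other way. MUP1, FAS2 and HSP12 were higher at 4 h than at 8 h by 0.36, 0.50 and 0.52 (limma adjusted p = 0.529 for each). The 33 genes past 0.5 were chosen on their 4 h values, as were the 122 past -0.5, so smaller sizes elsewhere are not read as a change. The 33 had medians of 0.66 and 0.59 at 4 h, then 0.60 over the 27 measured on the first 8 h array, 0.55 on the second, and 0.42 on the 10 h array. The 122 genes past -0.5 had medians of -0.77 and -0.73 at 4 h, then -0.49 and -0.30 over the 78 and 56 of them measured at 8 h, and -0.41 over the 87 measured at 10 h.

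At 4 h, high phosphate was set against low phosphate on the 3604 genes usable on all 4 arrays of that time, in a fit on 11 arrays. The phosphate conditions lay on different array designs, so phosphate and design cannot be told apart. The ratio was higher at high phosphate for 291 genes (8.07%) and lower for 237 (6.58%). Without centring these counts were 73 and 314. Leaving out the first or second high phosphate 4 h array gave 88 and 92 or 104 and 108, leaving out the first or second low phosphate 4 h array 133 and 101 or 71 and 43, and leaving out either low phosphate 8 h array 181 and 151. Without either high phosphate 8 h array 381 genes were lower. Where a group is left with 1 array, it is assumed to vary like the others. The genes of the next paragraph passed in every alternative fit that tested them.

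ARR2 read 3.50 and 3.44 at high phosphate, against 7.35 and 7.24 at low phosphate, a difference of -3.83 (SE 0.19, adjusted p = 0.000149). SUL1 read 0.63 and 0.71 at high phosphate, against 2.26 and 2.38 at low phosphate (difference -1.65, adjusted p = 0.0018). The genes were thus above control at both phosphate levels and further above it at low phosphate. SEO1, a putative permease, read 0.20 and 0.27 at high phosphate, against 2.08 and 1.76 (adjusted p = 0.00173). PHO5 read -0.42 and -0.24 at high phosphate, against 1.19 and 0.93 at low phosphate (difference -1.39, adjusted p = 0.00082), and PHO89 0.12 and 0.06, against 0.96 and 0.90 (adjusted p = 0.00228). Chaperone genes ran the other way, since 18 of 26 had a higher ratio at high phosphate and 0 a lower one, against 8.07% and 6.58% of all genes (15 and 0 of the list without centring). SSA4 read -0.17 and -0.16 at high phosphate, against -3.08 and -2.85 at low phosphate (difference 2.80, SE 0.10, adjusted p = 1.16e-05). HSP42 read 0.19 and 0.09, against -2.53 and -2.69 at low phosphate, and CTT1 0.01 and -0.02, against -1.05 and -1.42 (differences 2.75 and 1.23, adjusted p = 1.16e-05 and 0.00434). For all of these genes the 2 arrays of 1 condition did not overlap those of the other, which held for 33.5% of genes with high phosphate above and 29.8% with it below.

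**Figure D5:**
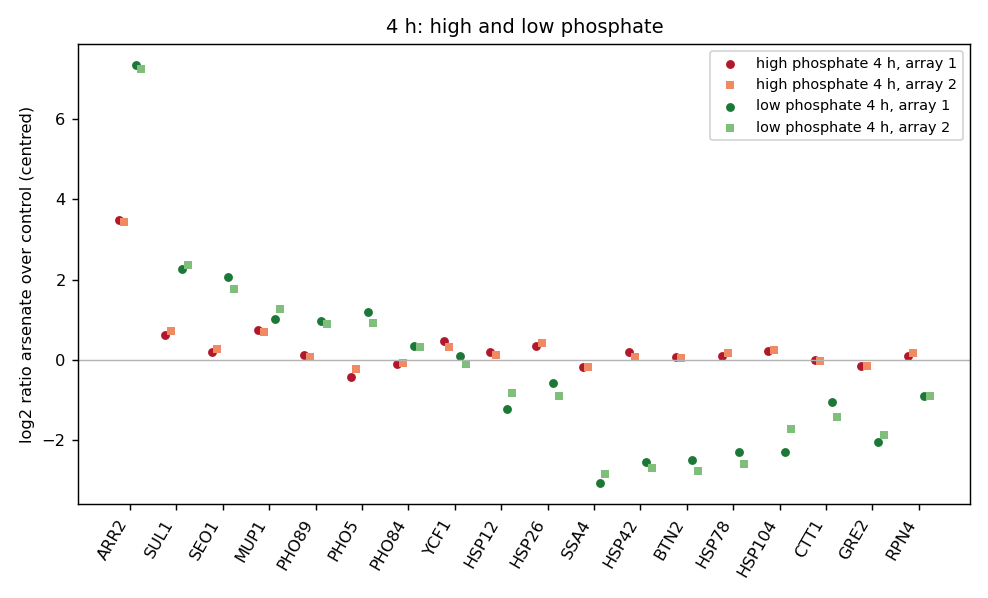
Log2 ratio of arsenate over control (vertical axis, centred) at 4 h for 18 genes, with the high phosphate arrays (red and orange) at the left of each gene and the low phosphate arrays (greens) at the right. The high phosphate points lie between -0.42 and 0.76 for all genes but ARR2, while at low phosphate SSA4, HSP42, BTN2 and HSP78 lie below -2 and ARR2 above 7.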

How the data were processed

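Per the labels, the authors labelled arsenate RNA with Cy5 and control RNA with Cy3 and used spots with a flag value of 0 for normalization. The authors deposited 1 normalized value per spot, taken here as a log2 ratio; how it was normalized, its log base, its centring and its direction were not stated, and the direction follows the dyes. Intensities were not used, so signal over background is unknown. The platform annotation gave 1 gene for 9271 of 10807 spots, several for 0 and none for 1536. Spots within 0.5 of each other were averaged per gene, and arrays were centred on the gene median. Two-sided tests used lmFit and eBayes of limma 3.58.1 in R 4.3.3 with p-values adjusted by Benjamini-Hochberg across every gene in the fit, at a threshold of 0.05. A run on simulated data, with a spread not taken from these arrays, checked the estimated log2 ratios. It set no requirement on which genes passed. The 4 h test had 1.85 prior and at most 2 residual degrees of freedom. Genes lacking an 8 h value, ARR2 among them, had fewer residual ones. Tables and figures used Python 3.11.15, numpy 2.4.6, pandas 2.3.3 and matplotlib 3.10.9. SE is limma's. No genome build was stated for the spots, and positions are left out.

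Since fewer than 12 genes passed in either direction, the genes named were the 12 whose smaller absolute value of the 2 arrays was largest in each direction, described without a test, with genes of arsenic, phosphate, sulfur and stress biology, the members nearest each list's median, and the 6 with the largest difference between arrays. BPT1, BDS1, BTN2, CUR1, CDC19, ADH1, YEF3, FAS1, FAS2, RPL41A, RPL41B, CYS4, MET10, HSP42, HSP78, HSP104, HOR7, GRE2, PDR5, AI1, COB, COX3, NNF1, YPR127W, HXT1, HXT2, PHO11, SEO1, MET16 and GAC1 were chosen after their values were seen. Comparisons, members and lists were chosen with earlier results of these data known. Deviations of same-numbered arrays correlated at -0.05 between 4 and 8 h and at -0.10 between high and low phosphate at 4 h, and from -0.12 to 0.23 over all 10 pairs of groups with 2 arrays, of which 5 exceeded 0.1. Since not every pair did, numbers were not taken as pairs. Alternatives changed the limit on spots, centring, scaling, the summary of spots, missing values, the variance model and the arrays fitted.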

Additional observations from a re-analysis of the deposited data

Results flagged for a closer look

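For 39 of the genes named, the ratio of arsenate over control at 4 h differed between high and low phosphate by the test of the difference itself (high minus low phosphate, log2, limma adjusted p under 0.05 over 3604 genes). Of all 3604 genes, 8.07% were higher and 6.58% lower at high phosphate by this test. Many of the 39 were chosen after their values were seen, so their number partly follows from that choice. All 39 kept their sign in each alternative fit that tested them, and 21 passed in all of these.

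Among those 21, lower values at high phosphate were found for ARR2 (-3.83), SUL1 (-1.65), SEO1 (-1.68), BDS1 (-1.33), PHO5 (-1.39), PHO89 (-0.84), NNF1 (-0.96) and YPR127W (-0.98). Higher values were found for the chaperone genes SSA4 (2.80), HSP42 (2.75), BTN2 (2.69), HSP78 (2.59), HSP104 (2.24), HSP26 (1.12) and CUR1 (1.07), for the stress genes GRE2 (1.80), CTT1 (1.23), HSP12 (1.18) and RPN4 (1.03), and for HXT1 (1.03) and FAS2 (0.77). The conditions lay on different array designs, and phosphate and design cannot be told apart.

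The other 18 genes missed the threshold in 1 to 12 of the alternative fits, with adjusted p up to 0.294. They were YPL247C (-1.65), MEF2 (-0.66), PHO11 (-0.67), PHO84 (-0.41), YER138W-A (0.70), TEF1 (0.58), TEF2 (0.73), PDC1 (0.45), YCF1 (0.39), TDH3 (0.59), CDC19 (0.68), ADH1 (0.54), YEF3 (0.44), FAS1 (0.54), RPL41A (0.66), RPL41B (0.58), HOR7 (0.64) and PDR5 (0.73).

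Spots without a gene name, which entered no test, also held values far from control. Of 163 such spots measured on both 4 h arrays, 18 were past -0.5 and 2 past 0.5 on both, against 262 (3.43%) and 52 (0.680%) of 7647 spots with a gene name. What these spots measure is not given in the annotation used here.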

How the results depend on the processing

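With 2 arrays at 4 h the counts of passing genes depend on the fit. For arsenate over control, 0 higher and 0 lower became 217 and 162 among genes with at least 2 agreeing spots, 415 and 313 with all 11 arrays, 2 and 0 with array weights and 1 and 0 with the 4 h arrays alone, and leaving out 1 array gave 0 to 1 higher and 0 to 0 lower. For 4 h minus 8 h, leaving out 1 array gave 0 to 167 higher and 0 to 44 lower. For high minus low phosphate, 291 higher and 237 lower became 134 and 103 at a spot limit of 0.25, 73 and 314 without centring, 208 and 73 for genes measured on every array and 419 and 358 with array weights, and leaving out 1 array gave 71 to 398 higher and 43 to 381 lower. The replicate block gave 0 and 0, 0 and 0, and 255 and 212. Of 77 named genes in the 4 h test, 68 kept their sign in every alternative, and 9 turned in some: without centring BTN2 (-0.05), FPS1 (-0.01) and PHO89 (-0.02); without the first 4 h array BDS1 (0.03), GPH1 (0.02), SET6 (0.15) and SPL2 (0.36); without the second ATG15 (-0.87) and CTT1 (0.01), and CTT1 also with a wider or no limit on spots. The cause of these differences was not tested. Signal over background is unknown, and the number of arrays limits the precision.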
